A study of Mus musculus with 6 samples.

Results

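The 10 genes described here encode calcium-binding proteins of neutrophils: the S100 genes S100a8, S100a9, S100a6, S100a10 and S100a11 and the annexin genes Anxa1, Anxa2, Anxa3, Anxa5 and Anxa11. They were taken by name from the 41388 genes counted in each library, after the Ensembl identifiers had been matched to mouse symbols, and all 10 were found. The libraries come from bone marrow neutrophils of C57BL/6 mice. The cells were loaded with 250 nM DIBAC4(3), an anionic dye whose fluorescence increases as a cell depolarizes, and then stimulated with 100 nM ionomycin, an ionophore that raises cytosolic calcium. Between 2 and 4 minutes later, 20000 cells were sorted from the depolarized and from the polarized population. Each population is represented by 3 libraries, and a depolarized and a polarized library share each of 3 replicate codes (pairs A, B and C), described by the submitters as biological replicates. Both groups received dye and ionomycin, so no library shows unstimulated cells, and the sources used here do not say how many mice gave each pair. The depolarized library of pair B carries the label run 1 and the other 5 libraries the label run 2, a difference that the sources used here do not explain.

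S100 proteins are small proteins with EF-hand calcium-binding loops, and most act as dimers. S100A8 and S100A9 together form calprotectin, which fills the cytosol of neutrophils, binds calcium and, outside the cell, sequesters zinc and manganese and signals through Toll-like receptor 4. Annexins bind negatively charged phospholipids when calcium is present, and so move to membranes in a cell whose calcium has been raised. Several S100 proteins bind the N-terminal tail of a particular annexin: S100A10 binds annexin A2 and S100A11 binds annexin A1.

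The libraries held 16904969 to 20381489 counts each. The cells carried the markers of their label, with 336 to 536 CPM (counts scaled to the library's total) of Ly6g and 2287 to 3121 CPM of the chemokine receptor gene Cxcr2. Some other marker lists moved with the groups. The summed CPM of 11 early neutrophil genes (mostly granule enzymes and granule proteins) was 4767 to 11927 in depolarized cells and 12112 to 23298 in polarized cells. The ratio of that sum, depolarized over polarized, came to 0.686 in pair A, 0.512 in pair B and 0.267 in pair C. Most of the sum was Ngp, which overlapped, at 3651 to 9539 CPM in depolarized cells and 9336 to 18101 CPM in polarized cells. Every other gene of that list was lower in depolarized cells without overlap, among them Mpo (0.209 to 5.86 against 13.4 to 146 CPM) and Elane (0.104 to 5.09 against 13.1 to 109 CPM). The sum of 10 late neutrophil genes, of which Il1b and Cxcr2 are also on the general list, was 19711 to 21302 CPM in depolarized cells and 16603 to 19250 CPM in polarized cells. Of the late genes Cd101, Ccrl2 and Il1b were higher in depolarized cells without overlap. The other late genes overlapped, among them Ccl6, at 8167 to 9033 CPM in depolarized cells and 7285 to 8353 CPM in polarized cells. The sum of 8 cell cycle genes was 9.43 to 13.7 CPM in depolarized cells and 19.1 to 40.6 CPM in polarized cells. In depolarized cells most of it was Mki67, which overlapped, at 7.19 to 9.29 CPM there and 7.60 to 12.5 CPM in polarized cells. The other cell cycle genes were lower in depolarized cells without overlap, at 2.01 CPM or less in each depolarized library. The sum of 8 general neutrophil genes, S100a8 and S100a9 not among them, was 49761 to 56008 CPM in depolarized cells and 56377 to 67481 CPM in polarized cells. Most of that sum was Retnlg, at 33745 to 37161 CPM in depolarized cells and 38647 to 49188 CPM in polarized cells, while Csf3r (2191 to 2403 CPM in depolarized cells, 1496 to 1680 CPM in polarized cells) and Il1b (953 to 1086 CPM in depolarized cells, 588 to 762 CPM in polarized cells) were higher in depolarized cells without overlap. The sum of 7 T and NK cell genes was 15.3 to 21.4 CPM in depolarized cells and 22.5 to 27.5 CPM in polarized cells. Of these, Nkg7 was at 0.0491 to 0.710 CPM in depolarized cells and 2.17 to 11.7 CPM in polarized cells, and Cd3d overlapped, at 13.9 to 20.7 CPM in depolarized cells and 14.4 to 19.6 CPM in polarized cells. Of all 14 lists, the other 9 overlapped between the groups in CPM. Among them the monocyte list summed to 1203 to 1290 CPM in depolarized cells and 1185 to 1493 CPM in polarized cells. Most of that sum was Ly6c2, lower without overlap at 651 to 735 CPM in depolarized cells and 781 to 1061 CPM in polarized cells. Csf1r (157 to 168 against 102 to 112 CPM), Cd68 (264 to 287 against 195 to 222 CPM) and Nr4a1 (53.4 to 64.8 against 21.3 to 52.1 CPM) were higher in depolarized cells without overlap. Genes of this list thus moved in opposite directions, which the sum does not show. Ccr2, Irf8, Klf4, Cx3cr1, Fn1, Ms4a6c and F13a1 were at 4.95 CPM or less in every library, with Ccr2 and Irf8 lower in depolarized cells without overlap. Once scaled by TMM factors, which correct for the make-up of each library, the late, general and T and NK sums overlapped too. The early neutrophil and cell cycle sums stayed apart on that scale. The part of these differences in the results below was not tested. In bulk RNA, fewer cells of one kind and less RNA per cell cannot be told apart. One library differed more than the rest, the polarized one of pair C: its counts gave a chi-square of 109 and 114 per degree of freedom against the other polarized libraries, where the other library pairs within a group gave 32.9 to 51.0.

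S100a8 and S100a9 ranked among the 4 most abundant genes in every library, and edgeR called neither as different between the populations. S100a8 (ENSMUSG00000056054, chromosome 3, 90669071 to 90670034 in GRCm38, plus strand) was the most abundant gene in the polarized library of pair C and ranked 2 in the other 5. It was at 85447, 74182 and 75824 CPM in the depolarized libraries of pairs A, B and C, against 84267, 89385 and 105753 CPM in the polarized ones. The groups overlapped, since the depolarized library of pair A lay above the polarized library of the same pair. The fitted log2 fold change, depolarized minus polarized, was -0.31 ± 0.21 (SE), with a 95% interval of -0.75 to 0.13 and an edgeR adjusted p of 0.966. S100a9 (ENSMUSG00000056071, chromosome 3, 90692632 to 90695721, minus strand) lies close by on the opposite strand and ranked 3 or 4 in every library. It was at 40887, 37059 and 37284 CPM in the depolarized libraries, against 42358, 43479 and 49464 CPM in the polarized ones. All 3 depolarized values lay below all 3 polarized ones, though the closest values, 40887 and 42358 CPM, came from pair A. Scaled by TMM factors (a correction for the make-up of each library), the groups overlapped for S100a9 too. Its fitted log2 fold change was -0.30 ± 0.20 (SE), with a 95% interval of -0.72 to 0.13 and an edgeR adjusted p of 0.966.

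**Figure D1:**
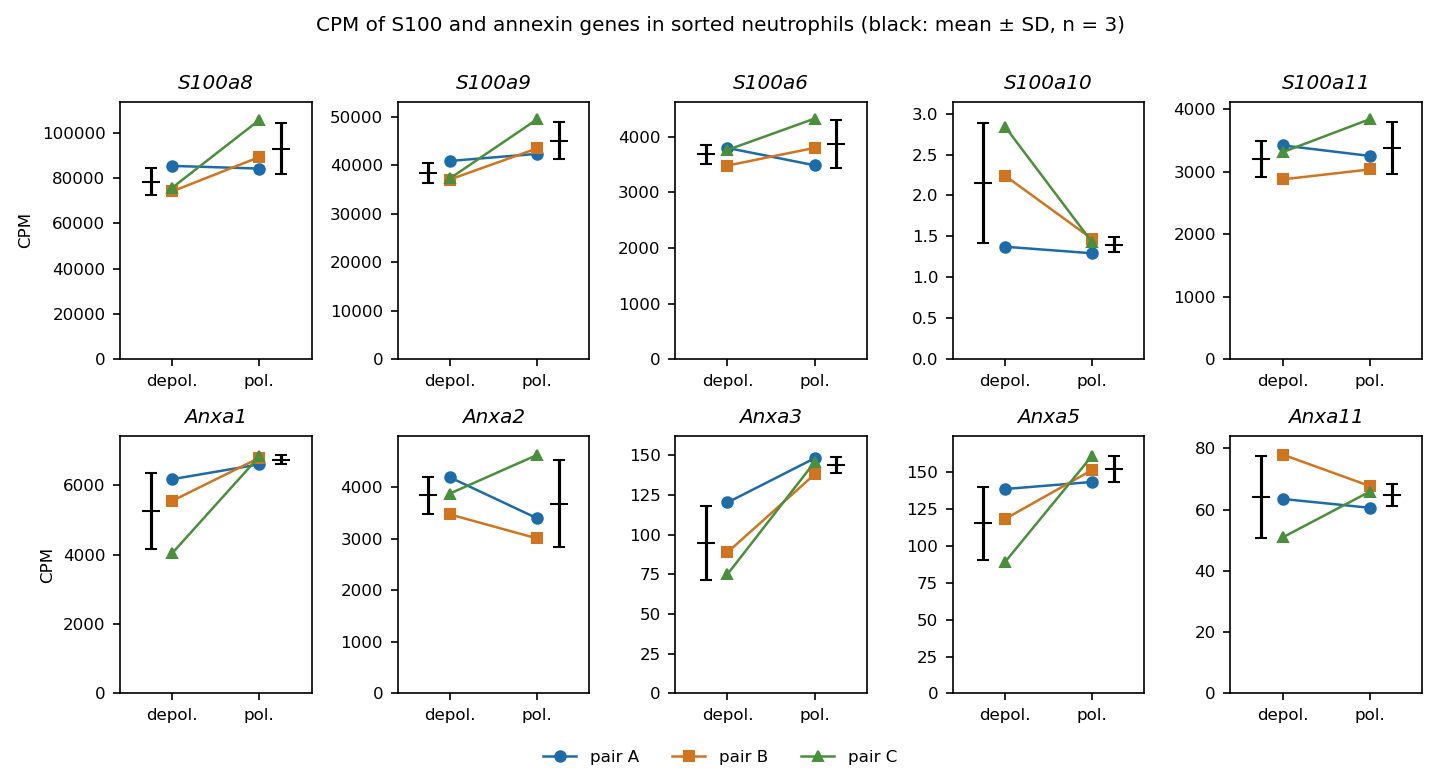
CPM of each of the 10 genes (vertical axes, each starting at 0) in depolarized cells (left) and polarized cells (right), with lines joining the libraries of a pair and black bars for mean ± SD, n = 3. Anxa3 lies at 75.1 to 120 CPM in depolarized cells, below the 138 to 148 CPM of polarized cells, while the groups overlap for S100a8, S100a6, S100a10, S100a11, Anxa2 and Anxa11.

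Together the pair of calprotectin genes held 12.6%, 11.1% and 11.3% of all counts in the depolarized libraries of pairs A, B and C, against 12.7%, 13.3% and 15.5% in the polarized ones. The difference was -0.029, -2.16 and -4.21 percentage points in pairs A, B and C, so it was close to 0 in pair A. The mean share was 11.7% ± 0.823 in depolarized cells and 13.8% ± 1.5 in polarized cells (SD, n = 3 each). The other 8 genes together held 1.52% to 1.79% of counts in depolarized cells and 1.70% to 2.00% in polarized cells, and these ranges overlapped.

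The S100a8 to S100a9 ratio varied little between the libraries. Per kilobase of gene length (RPKM), S100a8 exceeded S100a9 by a factor of 2.78, 2.67 and 2.71 in the depolarized libraries of pairs A, B and C, against 2.65, 2.74 and 2.85 in the polarized ones. The mean ratio was 2.72 ± 0.0594 in depolarized cells and 2.74 ± 0.0991 in polarized cells (SD, n = 3 each). The log2 ratio differed by 0.071 in pair A, -0.038 in pair B and -0.072 in pair C, so the pairs did not share a direction. The mean difference was -0.013, with p = 0.75 in an exact two-sided sign-flip permutation test, where the smallest p that 3 pairs can give is 0.25. In raw counts the same ratio was 1.99 to 2.14 over the 6 libraries. The size of the ratio thus depends on the lengths used, while its differences between libraries do not. The deposited lengths are 392 bases for S100a8 and 522 for S100a9. Median coding transcripts in the GENCODE M21 annotation have 486 and 515.5 bases. By those lengths the mean levels were 176563 CPM per kilobase for S100a8 and 80999 for S100a9.

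**Figure D2:**
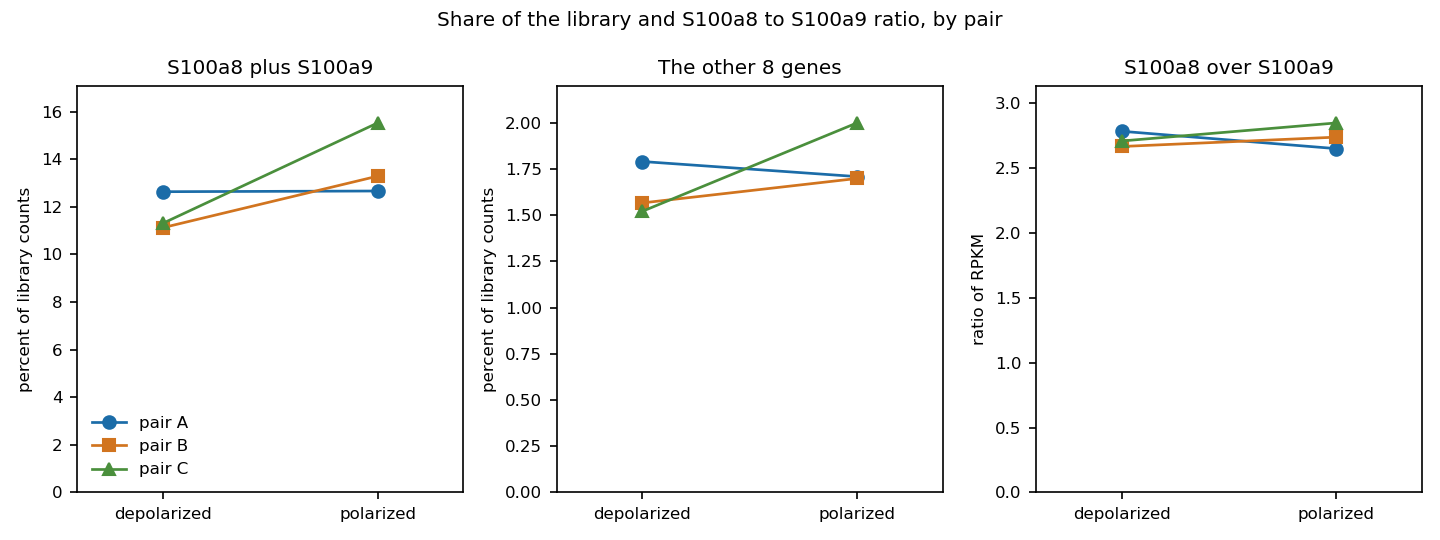
Percent of library counts held by S100a8 plus S100a9 (left) and by the other 8 genes (middle), and the ratio of S100a8 to S100a9 RPKM (right), for depolarized and polarized libraries joined by pair, with all vertical axes starting at 0. The share of S100a8 plus S100a9 runs from 11.1% to 15.5%, while the ratio stays between 2.65 and 2.85.

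Sequence before the RefSeq starts of the calprotectin genes is shown because these genes had the highest counts of the set. RefSeq entries in GRCm38.p6 were matched for 8 of the 10 genes (not for S100a10 and Anxa3), and the 250 bases before each start were searched in the sense of the gene. Only bases outside the gene's GENCODE M21 exons are printed, chr3:90668821-90668977 on the plus strand for S100a8 and chr3:90695722-90695971 on the minus strand for S100a9. Capitals mark matches, on either strand, to TATAAA (the TATA box), TTGCNNAA (a core of C/EBP sites) and GAGGAAG (a core of PU.1 sites), none of which overlap each other here.
S100a8: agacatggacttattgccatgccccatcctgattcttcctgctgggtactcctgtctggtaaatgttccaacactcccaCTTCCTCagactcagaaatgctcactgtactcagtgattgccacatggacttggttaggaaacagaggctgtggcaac
S100a9: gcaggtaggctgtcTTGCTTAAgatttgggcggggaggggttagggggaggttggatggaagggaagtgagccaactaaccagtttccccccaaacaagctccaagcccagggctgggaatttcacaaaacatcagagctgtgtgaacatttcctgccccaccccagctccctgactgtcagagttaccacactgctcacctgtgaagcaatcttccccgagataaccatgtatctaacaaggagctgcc
S100a8 holds a PU.1 core 171 bases before its RefSeq start. It also holds a TATA box 30 bases before that start, among 93 bases that lie in an exon of a longer GENCODE transcript and are not printed. S100a9 holds a C/EBP core 236 bases before its start and no match to the other motifs. Of 32851 RefSeq stretches of this length, 12.4% hold the TATA box letters, 9.56% the C/EBP core and 10.6% the PU.1 core, so a match is common and is not a measured binding site.

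S100a6 and S100a11 followed far below calprotectin. S100a6 (calcyclin; ENSMUSG00000001025, chromosome 3, 90612894 to 90614414) was at 3480 to 3796 CPM in depolarized cells and 3485 to 4323 CPM in polarized cells. S100a11 (calgizzarin; ENSMUSG00000027907, chromosome 3, 93520488 to 93526287) was at 2880 to 3424 CPM in depolarized cells and 3040 to 3844 CPM in polarized cells. The groups overlapped for both. Their fitted log2 fold changes were nearly alike, -0.14 ± 0.19 (SE; 95% interval -0.54 to 0.27) for S100a6 and -0.14 ± 0.19 (SE; 95% interval -0.54 to 0.26) for S100a11, each with an edgeR adjusted p of 1. S100a11 has near-identical processed pseudogenes, of which Gm12854 matches 297 of its 511 transcript bases at 99.0% identity and held 2026 counts against 371193. Gm7665 matches 297 bases at 98.7% identity and held 561 counts, and 5 further pseudogenes match at 85.6% to 93.7% identity. How reads that match several of these genes were counted is not known here, so the level of S100a11 is uncertain by an amount these files do not give.

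S100a10 was at a low level beside the gene of its annexin partner. The S100A10 protein (p11) is the S100 protein whose loops do not bind calcium, and it binds annexin A2 and brings it to the plasma membrane. S100a10 (ENSMUSG00000041959, chromosome 3, 93555080 to 93564643) lies downstream of S100a11 and had 28, 43 and 48 counts in the depolarized libraries of pairs A, B and C, against 25, 25 and 28 in the polarized ones. In CPM this was 1.37, 2.24 and 2.84 in depolarized cells, against 1.29, 1.47 and 1.43 in polarized cells. The depolarized value was the higher one in each pair, but the groups overlapped. Its fitted log2 fold change was 0.50 ± 0.40 (SE), with a 95% interval of -0.35 to 1.35 and an edgeR adjusted p of 1. Per kilobase of deposited length, Anxa2 exceeded S100a10 by a factor of 444 to 1053 over the 6 libraries. S100a11 exceeded S100a10 by a factor of 2770 to 6387. The size of both factors depends on the lengths used. No transcript of another gene in GENCODE M21 matched S100a10 over 50 or more bases at 85% identity.

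Anxa1 had the most counts of the annexin genes, with its lowest level in the depolarized library of pair C. Annexin A1 is released by activated neutrophils and restrains their adhesion and migration through the formyl peptide receptor Fpr2. Anxa1 (ENSMUSG00000024659, chromosome 19, 20373428 to 20390944) was at 6173, 5549 and 4044 CPM in the depolarized libraries of pairs A, B and C, against 6602, 6789 and 6831 CPM in the polarized ones. All depolarized values lay below all polarized ones, on the deposited and on the TMM scale. In CPM the coefficient of variation was 20.8% in depolarized cells and 1.81% in polarized cells, and on the TMM scale it was 23.7% in depolarized cells and 10.9% in polarized cells. The fitted log2 fold change was -0.45 ± 0.21 (SE), with a 95% interval of -0.89 to -0.0097, an unadjusted p of 0.0457 and an edgeR adjusted p of 0.744. Leaving out pair C gave -0.18.

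Anxa3 had the fitted value farthest from 0 of the 10 genes in the fit with pairs, and it did not pass the test across all genes. Annexin A3 (ENSMUSG00000029484, chromosome 5, 96793385 to 96845968) is a neutrophil annexin that associates with granule membranes. It was at 120, 88.9 and 75.1 CPM in the depolarized libraries of pairs A, B and C, against 148, 138 and 146 CPM in the polarized ones. The groups did not overlap in CPM or on the TMM scale. The coefficient of variation in polarized libraries was 3.67% in CPM and 11.9% on the TMM scale. The fitted log2 fold change was -0.70 ± 0.20 (SE), a 1.62-fold lower level, with a 95% interval of -1.11 to -0.28. Its unadjusted p of 0.00256 was the 107th smallest of 9971, and the edgeR adjusted p was 0.236. Without pair C the log2 fold change was -0.45 and the gene was called, with an edgeR adjusted p of 0.00280, in a fit with 1 residual degree of freedom that called 10.1% of all genes.

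Anxa5 was lowest in the depolarized library of pair C, as Anxa1 was. Annexin A5 (ENSMUSG00000027712, chromosome 3, 36448925 to 36475843) binds phosphatidylserine and is the protein used to stain apoptotic cells. It was at 139, 118 and 89.2 CPM in the depolarized libraries, against 144, 152 and 161 CPM in the polarized ones. The depolarized library of pair A lay just under the polarized range, and on the TMM scale the groups overlapped. The fitted log2 fold change was -0.49 ± 0.21 (SE), with a 95% interval of -0.92 to -0.052, an unadjusted p of 0.0305 and an edgeR adjusted p of 0.659. Leaving out pair C gave -0.19.

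Anxa2 and Anxa11 showed no common direction among the pairs. Anxa2 (ENSMUSG00000032231, chromosome 9, 69453620 to 69491795), which links membranes to actin and takes part in exocytosis and plasminogen binding, was at 4192, 3473 and 3878 CPM in the depolarized libraries, against 3399, 3008 and 4626 CPM in the polarized ones. It was higher in depolarized cells in pairs A and B and lower in pair C. The fitted log2 fold change was 0.02 ± 0.20 (SE), with a 95% interval of -0.41 to 0.44 and an edgeR adjusted p of 1. Leaving out pair C gave 0.27 for Anxa2, with an edgeR adjusted p of 0.0585. Annexin A11 tethers RNA granules to lysosomes in neurons and binds the calcium sensor ALG-2. Anxa11 (ENSMUSG00000021866, chromosome 14, 25842156 to 25886804) was at 63.5, 78.0 and 50.9 CPM in the depolarized libraries, against 60.6, 67.7 and 65.9 CPM in the polarized ones. The fitted log2 fold change was -0.10 ± 0.19 (SE), with a 95% interval of -0.51 to 0.31 and an edgeR adjusted p of 1. Its exons overlap those of the antisense gene Anxa11os over 113 bases, and Anxa11os held 1110 counts against 7267 for Anxa11. The exons of Anxa2 overlap those of the antisense gene Gm16144, which held 164 counts against 425256. The sources used here do not say whether counting used strand, so these reads may be shared. Anxa11 is also identical to the pseudogenes Gm2260 over 657 bases and Gm2274 over 602 bases of its 2394-base transcript, both with 0 counts, and its level is uncertain by any reads set aside as matching them.

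Across the 9971 genes tested, edgeR's quasi-likelihood test, blocked by pair, called 0.321% at an adjusted p under 0.05 (0.0802% higher and 0.241% lower in depolarized cells), and 0 of the 10 genes. At an unadjusted p under 0.05 there were 3 (Anxa1, Anxa3 and Anxa5), against 6.58% of all genes. DESeq2 called 0 of the 10 with the block, in a fit that called 16 genes higher and 23 lower of 9971. Without the block it also called 0 of the 10, and 5 genes higher and 18 lower of 9968. With so few calls of any kind, 0 of the 10 says little about them. Fitted values lay below 0 for 8 of the 10 genes, against 5021 of the 9971 genes tested. The median was -0.22 for the 10 genes, against -0.0022 for all genes tested. In CPM, 4 genes (S100a9, Anxa1, Anxa3 and Anxa5) were lower in every depolarized library than in every polarized one, against 3.14% of all genes, and 0 were higher without overlap, against 7.28%. These 4 genes were also the ones lower in all 3 pairs, against 8.74% of all genes, and S100a10 was higher in all 3, against 18.2%. On the TMM scale 2 (Anxa1 and Anxa3) were lower without overlap, against 4.54% of all genes, and 0 were higher, against 4.59%. These counts describe the list and were given no test of their own.

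The pairs disagreed on the size of the differences and, for several genes, on their direction. As TMM-scaled log2 ratios, S100a8, S100a9 and Anxa5 were at 0.083, 0.012 and 0.014 in pair A and below 0 in pairs B and C. On the TMM scale 2 of the 10 genes were lower in depolarized cells in pair A, 7 in pair B and 9 in pair C, against 50.8%, 50.2% and 49.5% of all genes tested. The median log2 ratio of the 10 genes, depolarized over polarized, was 0.11 in pair A, -0.22 in pair B and -0.62 in pair C. In pair C it ran from -1.18 for Anxa3 to 0.77 for S100a10, the only one of the 10 above 0 there. The pair with the largest differences also held the polarized library that stood apart and the lowest ratio of early neutrophil markers. For Anxa1, Anxa3 and Anxa5 its depolarized library was the lowest of all libraries, at 4044, 75.1 and 89.2 CPM. Whether any of these has a part in the differences of pair C was not tested. The polarized library of pair C alone was also left out, in a fit with no block that called 0 genes higher and 1 lower of 10348. With so few calls, 0 of the 10 genes called says little about them. In that fit Anxa3 was at -0.57 with an edgeR adjusted p of 0.487, and S100a10, at 0.64, was farther from 0.

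**Figure D3:**
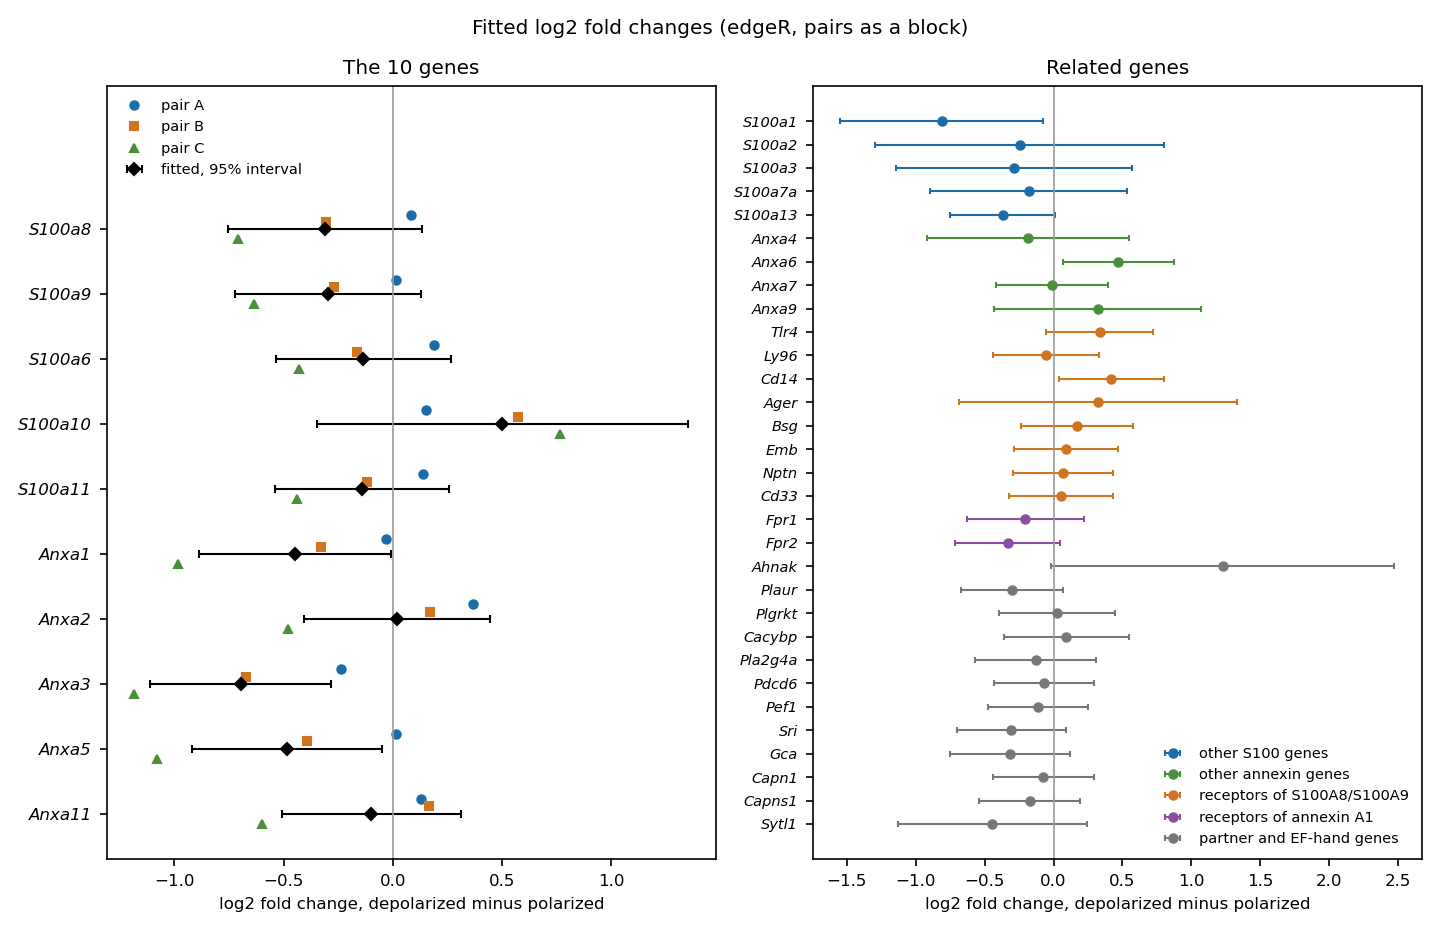
Fitted log2 fold changes, depolarized minus polarized, with approximate 95% intervals, for the 10 genes (left, with the TMM-scaled log2 ratio of each pair as coloured points) and for 31 related genes that passed the count filter (right, coloured by list). Anxa3 at -0.70 lies farthest below 0 among the 10, and pair C lies farthest below 0 for each of them except S100a10.

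Levels of the 10 genes spanned 5 orders of magnitude per kilobase. Mean RPKM over the 6 libraries was 218902 for S100a8, 79991 for S100a9, 6445 for S100a11, 5248 for S100a6, 2300 for Anxa1, 1008 for Anxa2, 79.7 for Anxa5, 74.7 for Anxa3, 15.6 for Anxa11 and 1.46 for S100a10. Each gene exceeded the next in all 6 libraries except Anxa5, which exceeded Anxa3 in 5, and the ranges of neighbours overlapped for S100a11 and S100a6 and for Anxa5 and Anxa3. The deposited lengths join the exons of all transcripts, 3731 bases for Anxa2 and 2608 for Anxa1. The median length of coding transcripts in GENCODE M21 was also used in their place. By that length Anxa2 came before Anxa1 (5000 against 3639 CPM per kilobase) and Anxa3 before Anxa5 (158 against 119). The medians were 752.5 bases over 4 transcripts for Anxa2 and 757 over 5 for Anxa3, with no filter for partial transcripts. They were 1648 bases for Anxa1 and 1129 for Anxa5. The reversals rest on these medians, and which lengths apply was not tested, so neither order is settled here.

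**Figure D4:**
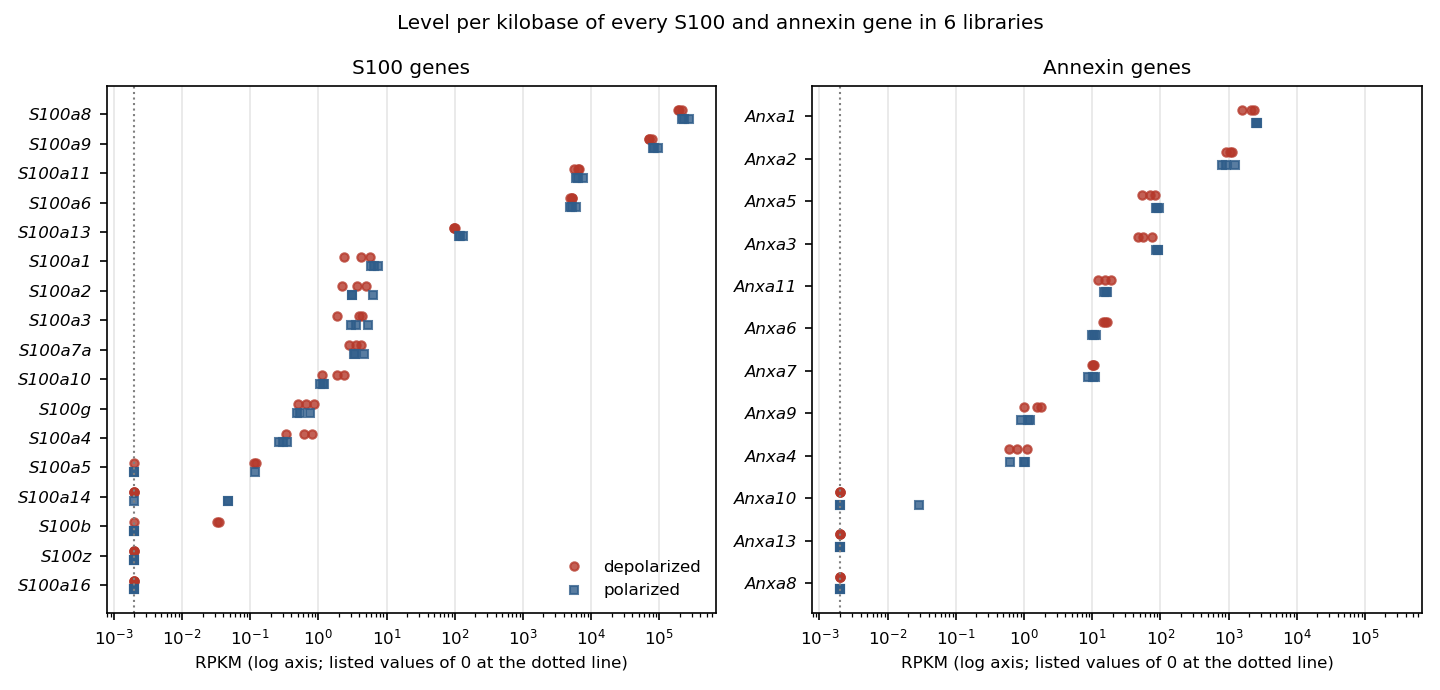
RPKM (log axis) of 17 S100 genes and 12 annexin genes in the 3 depolarized (circles, upper row) and 3 polarized libraries (squares, lower row), with listed values of 0 drawn at the dotted line. S100a8 and S100a9 lie at 70994 RPKM or more in every library, and S100a13 is the only other S100 gene outside the 10 above 10 RPKM.

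Of the other genes of both families, only S100a13, Anxa6 and Anxa7 reached 10 RPKM in any library. Of 13 other S100 genes, 12 were found in the files and 5 passed the count filter, and edgeR called 0 of these, with 1 (S100a1) at an unadjusted p under 0.05. S100a13, whose product takes part in the release of interleukin-1 alpha and fibroblast growth factor, was at 72.8, 70.4 and 69.8 CPM in the depolarized libraries of pairs A, B and C, against 84.4, 82.6 and 95.8 CPM in the polarized ones. Its groups did not overlap in CPM, and the fitted log2 fold change was -0.37 ± 0.18 (SE, edgeR adjusted p 0.783). Over all 6 libraries S100a4, a marker of monocytes and fibroblasts chosen for mention once its values were known, had 29 counts. S100a14, S100a16, S100b and S100z held 2, 0, 2 and 0 counts. Of 7 other annexin genes 4 were tested and 0 called, with 1 (Anxa6) at an unadjusted p under 0.05. Anxa6, a large annexin with a doubled core, was at 48.6, 45.6 and 42.2 CPM in the depolarized libraries, against 31.0, 29.5 and 33.4 CPM in the polarized ones. Its groups did not overlap and the depolarized cells were higher, opposite to Anxa1, Anxa3 and Anxa5. The fitted log2 fold change of Anxa6 was 0.47 ± 0.19 (SE), with a 95% interval of 0.066 to 0.88 and an edgeR adjusted p of 0.631. It was called once pair C was left out (0.65, edgeR adjusted p 9.27e-05, 1 residual degree of freedom), in the fit that called 10.1% of all genes. Anxa7, which promotes membrane fusion, was at 29.7, 31.1 and 30.9 CPM in depolarized cells, against 25.7, 33.1 and 30.0 CPM in polarized cells. Anxa8 and Anxa13 held 0 counts and Anxa10 held 1.

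Receptors of these proteins were measured in the same libraries. Of 9 genes for receptors or co-receptors of calprotectin 8 were tested and edgeR called 0, with 1 (Cd14) at an unadjusted p under 0.05 and a median log2 fold change of 0.13. Tlr4 (chosen for mention once its values were known) was at 90.9, 76.0 and 93.5 CPM in depolarized cells, against 65.9, 51.1 and 83.2 CPM in polarized cells. Its co-receptor gene Cd14 was at 79.3, 61.9 and 79.6 CPM in depolarized cells, against 62.2, 38.2 and 59.6 CPM in polarized cells. Both were higher in depolarized cells in each pair, with overlapping groups for each of them and log2 fold changes of 0.33 ± 0.18 and 0.42 ± 0.18 (SE, edgeR adjusted p 0.871 and 0.673). Without pair C both were called, at 0.53 and 0.53 (edgeR adjusted p 0.000695 and 0.000860). Together with Anxa6 these were 3 of the 31 related genes tested, near the 10.1% of all genes that this fit called. The most abundant of these genes was Emb, which encodes the membrane glycoprotein embigin. It was at 1030 to 1038 CPM in depolarized cells and 833 to 1016 CPM in polarized cells (log2 fold change 0.09 ± 0.18, SE, edgeR adjusted p 1). The depolarized cells were higher without overlap in CPM, as for 7.28% of all genes, but on the TMM scale the groups overlapped. Cd33, whose product is a receptor of S100A9 in human cells, had a log2 fold change of 0.06 ± 0.18, and Ly96, the MD-2 subunit of the Toll-like receptor 4 complex, -0.06 ± 0.18 (SE, edgeR adjusted p 1 for both).

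Of the formyl peptide receptor genes, Fpr1 and Fpr2 were expressed and Fpr3, Fpr-rs3 and Fpr-rs4 held 8, 2 and 1 counts. Fpr1, the main receptor for bacterial formyl peptides, was at 1828 to 2147 CPM in depolarized cells and 1942 to 2544 CPM in polarized cells, with a log2 fold change of -0.21 ± 0.20 (SE, edgeR adjusted p 1). Fpr2 was at 570, 578 and 454 CPM in the depolarized libraries of pairs A, B and C, against 625, 734 and 568 CPM in the polarized ones. It was lower in each pair, as Anxa1 was, and its log2 fold change was -0.33 ± 0.18 (SE), with an edgeR adjusted p of 0.869. Neither of the 2 tested genes was called or had an unadjusted p under 0.05 by edgeR, and DESeq2 called 0.

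Of 17 genes for partner proteins, plasminogen binding and other EF-hand proteins, 12 were tested, and 0 were called by edgeR, 0 had an unadjusted p under 0.05 and 0 were called by DESeq2. Plaur, the urokinase receptor gene, was at 570, 625 and 617 CPM in depolarized cells, against 691, 737 and 703 CPM in polarized cells. These groups did not overlap (log2 fold change -0.30 ± 0.17, SE, edgeR adjusted p 0.893). Sri, the gene of the calcium sensor sorcin, was at 352, 365 and 303 CPM in depolarized cells, against 373, 413 and 415 CPM in polarized cells, also without overlap (-0.31 ± 0.19, SE, edgeR adjusted p 0.930). Pdcd6, the gene of ALG-2, was at 79.4 ± 9.06 CPM in depolarized cells and 79.5 ± 7.13 CPM in polarized cells, and Pef1, the gene of its partner peflin, at 92.8 ± 10.9 and 95.8 ± 11.9 CPM in depolarized and polarized cells (SD, n = 3 each). Their fitted log2 fold changes were -0.07 ± 0.17 for Pdcd6 and -0.11 ± 0.17 for Pef1 (SE, edgeR adjusted p 1 for both).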

How the data were processed

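For each library the authors deposited a table of 41388 genes that gives raw counts, CPM and RPKM. Per the submitters' processing notes, bcl2fastq, STAR (2.0.4b) and featureCounts of Subread (1.45) were used on GRCm38; the sources used here do not name the annotation release or the handling of strand and multi-mapping. The deposited CPM equals the count scaled to the library's total (largest difference 4.8e-10), and the deposited RPKM equals CPM per kilobase of the listed length. Symbols were matched for 40254 genes.

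Counts were fitted in R 4.3.3 with edgeR 4.0.16: filterByExpr by group (9971 genes left, all 10 genes among them), scaling by TMM, and a quasi-likelihood F test blocked by replicate code, with Benjamini-Hochberg adjustment over all tested genes (threshold 0.05, 2 residual degrees of freedom). The test was checked on simulated data. Standard errors are the fold change over the square root of F, so intervals are approximate. Pairs come from the design text. Deviations from the group means correlated between libraries of a code at r = 0.0996, 0.395 and 0.033 across genes for pairs A, B and C. Between libraries of different codes r ran from -0.319 to 0.206, the highest for depolarized A with polarized C. The values thus show the pairing in pair B and little of it in pairs A and C. p-values measure the spread between these libraries only. Alternatives used DESeq2 1.42.0, no block, other scalings and filters, and each pair left out.

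The genes, lists and tests were chosen with earlier results of these data known. The rule for named genes took all 10 genes, and from each related list called genes and up to 4 with a mean RPKM of at least 10. Fold changes are depolarized minus polarized. The labels name no molecular identifiers that would mark PCR duplicates, so precision from depth covers counting error only.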

Additional observations from a re-analysis of the deposited data

How the results depend on the processing

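Of the 10 genes, 0 were called in the fit with pairs and in 12 of 13 alternatives (DESeq2 with and without the replicate block, no replicate block in edgeR, DESeq2 size factors, library totals, scaling without S100a8 and S100a9, no filter, 10 CPM in 3 libraries, robust edgeR, and leaving out pair A, pair B or, chosen after seeing the data and with no block, the polarized library of pair C). The exception was leaving out pair C, so counts of called genes ran from 0 to 1 (Anxa3) over the left-out pairs, and from 0 to 3 (Anxa6, Tlr4 and Cd14) for the 31 related genes, where the fit without pair C called 10.1% of all genes. The cause was not tested. S100a10 was not tested with the filter at 10 CPM. Some alternatives called few genes of any kind. The unpaired edgeR fit called 0 of 9971, and library totals called 0 higher and 6 lower of 9971. DESeq2 called 16 higher and 23 lower of 9971 with the block, and 5 higher and 18 lower of 9968 without it. The filter at 10 CPM called 0 higher and 2 lower of 4879. The fit without the polarized library of pair C called 0 higher and 1 lower of 10348. In such fits 0 of the 10 genes called says little about them. S100a8, S100a9, Anxa1, Anxa3 and Anxa5 stayed below 0 and S100a10 above 0 in every alternative that tested them. Over the left-out pairs S100a8 ran from -0.51 (pair A left out) to -0.11 (pair C left out), and S100a9 from -0.45 to -0.13 for the same pairs. Anxa2 changed sign to -0.022 in the unpaired edgeR fit and -0.019 in unpaired DESeq2, and ran from -0.15 to 0.27 over the left-out pairs. Over the left-out pairs S100a6 ran from -0.29 to 0.011, S100a11 from -0.28 to 0.0096 and Anxa11 from -0.23 to 0.15. Without the polarized library of pair C alone they were at 0.030, 0.042 and 0.0077. The difference in the log2 S100a8 to S100a9 ratio ran from -0.055 to 0.016 over the left-out pairs, and with no pairing its exact permutation p was 0.7, where 0.1 is the smallest possible. The difference in the share of S100a8 and S100a9 ran from -3.19 to -1.10 percentage points over the left-out pairs. By CPM in place of RPKM 3 genes changed place in the order of levels, and by coding transcript length 4. At this depth 3 counts correspond to 0.147 to 0.177 CPM per library, so only S100a10 among the 10 rests on few counts.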
